A study of Mus musculus with 75 samples.

Results

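The enzymes that write and erase DNA methylation were followed in mouse skin fibroblasts as the cells were passaged into replicative senescence and as 3 transcription factors were manipulated. The group held 8 genes, chosen by name from the 24984 genes of the count tables: the methyltransferases Dnmt1, Dnmt3a and Dnmt3b, the maintenance cofactor Uhrf1, the dioxygenases Tet1, Tet2 and Tet3, and the glycosylase Tdg. All 8 were in the tables, and 7 had enough reads to be tested. Tdg did not.

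The cells were untreated C57BL/6 skin fibroblasts at passages P1, P3, P5 and P7, with 4 RNA-seq libraries a passage. The methods give 2-month-old female mice as their source. ATAC-seq, which marks open chromatin, was available for 4 samples at P1 and 3 each at P3, P5 and P7. In the other RNA-seq experiments, C57BL/6 skin fibroblasts overexpressed E2f4 from a doxycycline-induced lentivirus (2 libraries against 2 with the vector carrying EGFP), or carried a lentiviral hairpin against E2f4 (sh1), Tead1 (sh3 or sh4) or Atf3 (sh5 or sh6). Each hairpin group and each non-targeting control (nt) had 3 libraries, all selected with puromycin. The methods name both 2-month-old and newborn mice as sources for the manipulated cells, and the labels do not say which was used. Nothing states that replicates came from separate animals, so each p-value measures the spread between these libraries, which may be technical.

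Methylation of CpG sites is kept through cell division by a maintenance machinery: UHRF1 recognises the hemimethylated sites left by replication and recruits DNMT1, which copies the methyl group onto the new strand. DNMT3A and DNMT3B set methylation on unmethylated DNA. TET enzymes oxidise methylated cytosine, and TDG removes the later oxidation products, which base excision repair then replaces. Dnmt1 and Uhrf1 are known as genes expressed with DNA replication, and E2F factors are the best known regulators of that programme.

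Because E2f4 was one of the manipulated factors, sequences before annotated start sites of the maintenance pair are shown with letters of the E2F motif in capitals. The sequences come from RefSeq (GRCm38.p6), run 5′ to 3′ on the strand of the gene and end at the base before an annotated start site. The first Uhrf1 sequence is chr17:56303087-56303336 on the plus strand, before the upstream start site at 56303337. The second is chr17:56304063-56304312, before the downstream start site at 56304313. The Dnmt1 sequence is chr9:20952624-20952787 on the minus strand, before the start site at 20952623. For transcripts from the start site at 20952979 it lies inside the gene and is not promoter. It begins at an annotated translation start, so its capitals are coding letters there.
Uhrf1 upstream: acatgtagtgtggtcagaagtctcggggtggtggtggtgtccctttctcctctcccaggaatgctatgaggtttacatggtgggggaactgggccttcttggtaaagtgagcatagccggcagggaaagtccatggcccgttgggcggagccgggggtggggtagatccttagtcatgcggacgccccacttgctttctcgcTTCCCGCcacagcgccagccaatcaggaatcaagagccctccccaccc
Uhrf1 downstream: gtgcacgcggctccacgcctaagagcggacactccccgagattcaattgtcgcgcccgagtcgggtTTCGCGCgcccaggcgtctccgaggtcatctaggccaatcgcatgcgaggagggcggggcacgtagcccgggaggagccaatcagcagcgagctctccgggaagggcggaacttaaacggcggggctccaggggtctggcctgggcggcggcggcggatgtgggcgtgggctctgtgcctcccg
Dnmt1: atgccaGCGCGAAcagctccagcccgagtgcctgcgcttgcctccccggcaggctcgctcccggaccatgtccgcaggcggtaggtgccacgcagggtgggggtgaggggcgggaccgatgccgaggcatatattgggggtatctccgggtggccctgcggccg

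The letters searched for E2F were TTCCCGC with the variant TTGGCGC, and further TTCGCGC with its own variant TTGCCGC, on both strands, in windows from 250 bases before to 50 after a start site. Among the 13 windows of the 8 genes, 3 held such letters: the upstream Uhrf1 window, the downstream Uhrf1 window and 1 of 3 Dnmt1 windows, which had 3 matches, 1 of them in the stretch printed. That Dnmt1 start site, at 20952623, has 1 annotated transcript and an ATAC peak over it in all 13 samples. The same peak also covered the start site at 20952979, which has 3 transcripts. The Dnmt1 windows at 20952979 and at 20959888 held no match. The windows of Dnmt3a, Dnmt3b, the TET genes and Tdg held none of these letters. Of 32851 promoter windows in the table, 9.57% held at least 1 match. TEAD letters (GGAATG, both strands) were found only in the upstream Uhrf1 window among the members, against 14.7% of all windows. AP-1 letters (TGACTCA, both strands), the motif of the family of Atf3, were in no member window, against 5.2% of all windows. A match is a description of letters and not of a bound site.

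Read totals were 13430229 to 15725823 counts for the passage libraries and 9147324 to 27552949 over all 44 libraries. Levels are in CPM, which scales each count to the size of its library, with TMM factors set within each experiment, so levels of different experiments are set side by side without a test. The 8 fibroblast markers, such as Col1a1 and Pdgfra, summed to 13612 CPM or more in every library. Among the passage libraries, P7 replicate 1 was the farthest from its group over all genes: a chi-square divided by its degrees of freedom came to 32.9 to 43.8 against the other libraries and to 11.2 to 16.7 among those. The P1 cultures also held RNA of other cells: the summed CPM of 10 macrophage markers was 311 to 477 at P1 and 22.7 to 63.5 later, and that of 6 endothelial markers was 151 to 160 at P1, 40.4 to 45 at P3 and 10.8 to 13.9 at P7. Skeletal muscle markers summed to 123 to 190 CPM at P1, 52.4 to 58.9 at P3 and 38.8 to 110 at P7, and keratinocyte markers to 55.5 to 356 at P1 and 1.78 to 7.87 later. From P3 to P7, 6 of 6 endothelial, 5 of 6 tested skeletal muscle and 6 of 10 macrophage markers were still called lower. In the other direction, 1 skeletal muscle, 1 macrophage and 1 of 5 tested keratinocyte markers were called higher, and 0 keratinocyte markers were called lower. Comparisons of P7 with P3 are given beside those with P1, and the part of these cells in either was not tested. Among the manipulated cells, replicate 3 of Atf3 sh5 (59.4 and 63.7 by the same measure, against 3.29) and replicate 3 of E2f4 sh1 (12 and 10.5, against 3.31) stood apart from their groups. The E2f4 control replicate 1 had 18352 genes detected and 16.1% of reads in rows that name no gene, against 14984 to 15510 genes and 10.9 to 12.1% in the other 2. Further, Atf3 sh6 cells had fibroblast markers at 13612 to 14602 CPM against 35554 to 37408 in their control.

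The maintenance pair fell at every step of passaging. The Dnmt1 level was 236, 233, 217 and 213 CPM in the 4 P1 libraries, 168, 133, 179 and 154 at P3, 118, 89.8, 93.5 and 88.4 at P5, and 54.3, 65.4, 66.8 and 62.9 at P7. No library of a later passage reached the lowest library of the passage before it. Group means were 224 ± 11.3 CPM (SD, n = 4) at P1 and 62.4 ± 5.62 at P7, a 3.6-fold fall (log2 change -1.85 ± 0.107 SE, adjusted p = 3.1e-11 by edgeR's quasi-likelihood test with Benjamini-Hochberg adjustment, which applies to every adjusted p of the RNA-seq data).

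Uhrf1 fell further. Its level was 123, 119, 111 and 110 CPM at P1, 75.4, 61.3, 80.1 and 69.7 at P3, 37.1, 24.3, 29.7 and 29.3 at P5, and 9.7, 14.2, 11.3 and 7.79 at P7. Here too the groups did not overlap at any step. From P1 to P7 the fall was 10.8-fold (log2 change -3.43 ± 0.153, adjusted p = 1.41e-12), and from P3 to P7 it was 6.67-fold (log2 change -2.74 ± 0.151, adjusted p = 7.11e-11). In bulk samples, fewer cells that express a gene and less RNA in each cell cannot be told apart.

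**Figure D1:**
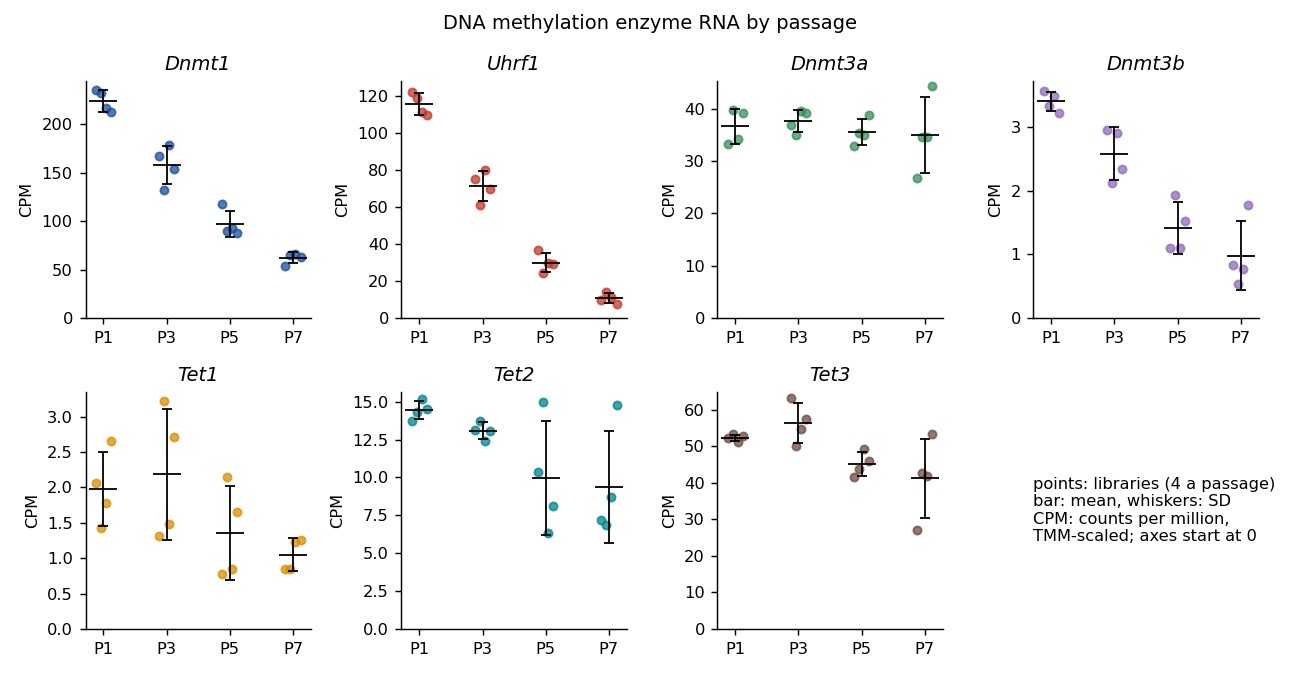
CPM (vertical axes, from 0) of the 7 tested genes at P1, P3, P5 and P7 (horizontal axes), with a point for each of 4 libraries, the mean as a bar and the SD as whiskers. Dnmt1 and Uhrf1 step down without overlap between passages, Dnmt3b falls by P5, and Dnmt3a stays between 26.7 and 44.4 CPM.

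Steps between neighbouring passages differed in size. From P1 to P3 the log2 change was -0.50 for Dnmt1 (adjusted p = 0.00093) and -0.69 for Uhrf1 (adjusted p = 0.000515). These were the 2 of 7 tested members called lower there, where 17.5% of all genes were. From P3 to P5 Dnmt1 changed by -0.70, Uhrf1 by -1.25 and Dnmt3b by -0.87 on the log2 scale (adjusted p = 9.58e-05, 4.83e-06 and 0.0244), 3 of 7 where 15.3% of all genes were lower. The Dnmt3b call at this step was lost when replicate 1 or 3 of P3, or replicate 1 or 3 of P5, was left out. From P5 to P7 the pair fell again, Dnmt1 by 0.64 and Uhrf1 by 1.49 on the log2 scale (adjusted p = 0.000309 and 2.11e-06), 2 of 7 against 9.1% of all genes.

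Between P7 and P1, 6 of 7 tested members were lower, 0 were higher and Dnmt3a was not called, where 31.9% of all genes were lower. Between P7 and P3, 5 of 7 were lower, against 26.5% of all genes, and 0 were higher, against 24.8%. The members' median log2 change was -0.92 and -1.05 in these comparisons, and that of all genes tested was -0.01 in both. The comparisons share the P7 libraries and are given side by side for that reason.

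Among the de novo enzymes, Dnmt3b fell and Dnmt3a was not called. Dnmt3b was scarce throughout, at 3.22 to 3.56 CPM at P1, 2.13 to 2.96 at P3, 1.1 to 1.94 at P5 and 0.54 to 1.78 at P7. The groups of P1, P3 and P5 did not overlap each other, whereas those of P5 and P7 did. Its log2 change was -1.78 ± 0.29 from P1 to P7 (adjusted p = 2.77e-05) and -1.38 ± 0.297 from P3 to P7 (adjusted p = 0.000751). The P7 libraries held as few as 7 counts of Dnmt3b, which limits the precision of its level there.

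Dnmt3a was 33.3, 39.8, 34.2 and 39.2 CPM at P1 and 26.7, 34.6, 34.5 and 44.4 CPM at P7. The P7 libraries spanned the whole range of the P1 libraries. Its log2 change from P1 to P7 was -0.06 ± 0.118 (adjusted p = 0.659), and from P3 to P7 it was -0.10 ± 0.118 (adjusted p = 0.484).

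The TET genes were called lower at P7 than at P1, and these calls depended on single libraries. Tet3, the family member with the highest level per kb of exon, was 52.1, 53.2, 51.1 and 52.7 CPM at P1, 63.1, 49.9, 54.6 and 57.4 at P3, and 27, 42.8, 41.9 and 53.4 at P7. Its log2 change was -0.34 ± 0.136 from P1 to P7 (adjusted p = 0.0353) and -0.45 ± 0.136 from P3 to P7 (adjusted p = 0.00998). Of the 4 P7 libraries, 1 lay above every P1 library and 1 at 27 CPM far below the rest. Without that lowest library (replicate 1) the change from P1 was -0.18 (adjusted p = 0.118). The call against P1 was also lost when any other library of P1 or P7 was left out, except P7 replicate 4, and the call against P3 was kept throughout.

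Tet2 was 13.7 to 15.2 CPM at P1, 12.4 to 13.7 at P3 and 10.3, 15, 6.33 and 8.14 at P5. At P7 it was 7.18, 6.87 and 8.69 in 3 libraries and 14.8 in the other. All P7 libraries lay within the range of P5, and 1 of them reached the range of P1. The log2 change was -0.62 ± 0.226 from P1 (adjusted p = 0.0225) and -0.48 ± 0.227 from P3 (adjusted p = 0.0856). Without P7 replicate 4, the change from P3 was -0.79 (adjusted p = 0.0037).

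Tet1, the tested member with the lowest level per kb at P1, was at 1.43 to 2.66 CPM at P1, 1.31 to 3.22 at P3, 0.775 to 2.14 at P5 and 0.84 to 1.26 at P7. Every P7 library lay below every P1 and P3 library. The log2 change was -0.92 ± 0.369 from P1 (adjusted p = 0.0364) and -1.05 ± 0.367 from P3 (adjusted p = 0.0226). With P7 replicate 1 or replicate 2 left out, 3 of 7 members were called against P1 in place of 6, and Tet1, Tet2 and Tet3 were the ones lost. The Tet1 call against P1 was also lost without P1 replicate 1 or 4, that against P3 without replicate 2 or 4 of P3 or replicate 1 or 2 of P7, and the Tet2 call against P1 also without P7 replicate 3.

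Tdg, the glycosylase that acts after the TET enzymes, was listed at 0 in 41 of 44 libraries. The others held 6 and 5 counts (Tead1 nt replicates 1 and 3) and 2 counts (Tead1 sh3 replicate 2). A count of 0 allows up to 3 counts, or 0.109 to 0.328 CPM depending on the library, for counting error only. The annotation places Tdg at chr10:82629814-82650799 (GRCm38, plus strand), overlapping Glt8d2 on the other strand, and RefSeq also lists processed Tdg copies. Of the 3523 exonic bases of Tdg, 367 are shared with exons of Glt8d2 and the rest are not. Reads shared with such copies or with an overlapping gene can be left uncounted, and whether that occurred here was not tested. No level of Tdg is therefore read from the counts. Its promoter was open in every ATAC sample, as given with the promoter data.

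Levels of different genes were compared as CPM per kb of exon. In all 12 libraries of P1, P3 and P5 the order was Dnmt1, Uhrf1, Tet3, Dnmt3a, Tet2, Dnmt3b, Tet1. Dnmt1 fell from 35.5 ± 1.79 CPM per kb (SD, n = 4) at P1 to 9.86 ± 0.889 at P7 and stayed the highest in each library. Uhrf1 fell from 31.7 ± 1.67 to 2.94 ± 0.742 CPM per kb, and at P7 it lay within the spread of Tet3 (3.51 ± 0.922) and Dnmt3a (3.52 ± 0.728). The ratio of Uhrf1 to Dnmt1 per kb was 0.888 to 0.901 at P1, 0.776 to 0.801 at P3, 0.468 to 0.573 at P5 and 0.215 to 0.376 at P7. None of these ranges overlapped. The ratio of Dnmt1 to Dnmt3a per kb was 8.54 to 11.1 at P1 and 2.23 to 3.19 at P7.

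Since both maintenance genes are expressed with replication, their levels were set against 26 replication genes, such as the Mcm helicase subunits, Mki67 and Top2a. Of these, 25 were lower at P7 than at P3 (median log2 change -1.7), so the list moved with the maintenance pair. Relative to the mean log2 CPM of the list, Dnmt1 was 1.93 above it in each P1 library and 2.22 ± 0.14 (SD, n = 4) above at P7. On this scale Uhrf1 stood at 0.98 ± 0.01 in P1 cells, 0.77 ± 0.08 in P3 cells, 0.36 ± 0.14 in P5 cells and -0.29 ± 0.26 in P7 cells. Its P7 libraries ranged from -0.58 to 0.03 and lay below all earlier ones, while the P7 libraries of Dnmt1 ranged from 2.03 to 2.35 and lay above those of P1. Dnmt3a went from -0.67 ± 0.16 to 1.38 ± 0.35 on the same scale.

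**Figure D2:**
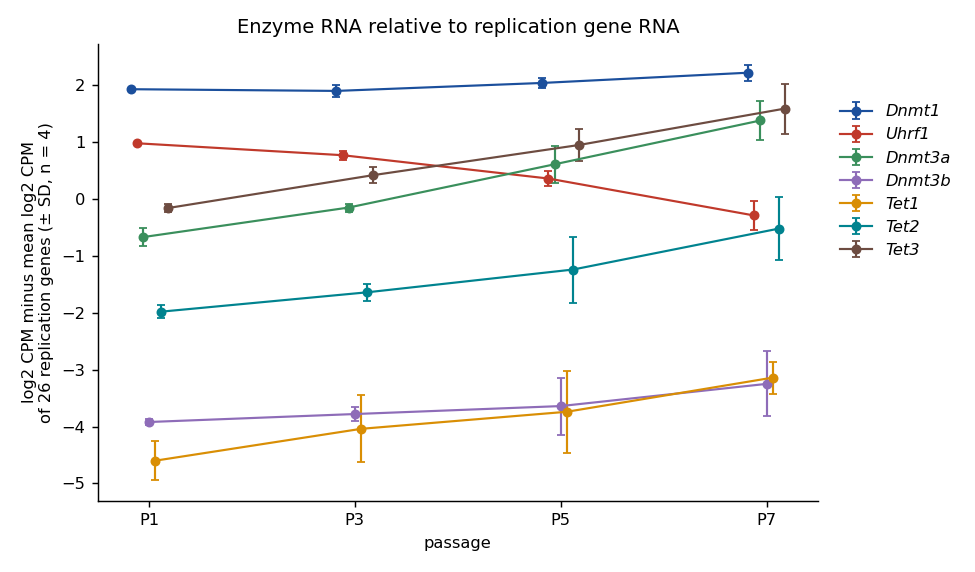
Log2 CPM of each tested gene minus the mean log2 CPM of 26 replication genes (vertical axis) against passage (horizontal axis), as the mean of 4 libraries with the SD as whiskers. Dnmt1 goes from 1.93 to 2.22, Uhrf1 drops from 0.98 to -0.29, and the other genes climb relative to the replication genes.

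The genes most like each member over the 16 passage libraries were ranked by Pearson's r of log2 CPM, as a description, since libraries of a passage share their group. The closest to Dnmt1 were Wdhd1, Cdc45, Kif24, Incenp and Mcm4 (r = 0.992 to 0.99). For Uhrf1 they were Mcm3, Ccnf, Mcm7, Foxm1 and Exo1 (r = 0.997 to 0.992). The r between Dnmt1 and Uhrf1 was 0.98. The other members had less close partners: Mef2c for Dnmt3b (r = 0.954), Soga1 for Tet3 (r = 0.93), Bmp2k for Tet2 (r = 0.928), Kif13a for Dnmt3a (r = 0.876) and Omd for Tet1 (r = 0.863).

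Other genes of the pathway were counted in 5 lists, at P7 against P3. Of 16 genes listed as partners in maintenance and de novo methylation, 12 were lower and 0 higher (median log2 change -0.57). They included Hells, the remodeller that gives DNMTs access to nucleosomal DNA (-2.61), and its activator Cdca7 (-2.14). Also lower were Cdca7l (-2.27), the ligase Lig1 (-2.03), the replication clamp Pcna (-1.01) and Qser1 (-0.94). Lig1 and Pcna are also on the list of replication genes.

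Of 18 tested genes of demethylation and base excision repair, 8 were lower and 1 higher (median log2 change -0.14). The glycosylases Neil3 (-3.22), Ung (-1.12) and Mbd4 (-1.11) were among those that fell, as were Idh2 (-1.17), Parp1 (-0.81) and Lig3 (-0.61). The gene called higher was a glycosylase too, Smug1 (0.50), and Neil1 (0.21) and Neil2 (0.14) were not called. Of 15 tested genes of methyl donor supply, 9 were lower and 2 higher (median -0.43). Among those that fell were genes of the folate cycle and thymidylate synthesis: Shmt1 (-1.7), Tyms (-1.35), Shmt2 (-0.77), Mtr (-0.76) and Mthfd1 (-0.68).

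Among 9 readers of methylated DNA, Zbtb4 was higher (0.84), and the median log2 change of the list was -0.13. Of 17 germline genes that are known to be silenced by methylation, 2 had enough reads to be tested, and neither passed edgeR's quasi-likelihood test, nor had an unadjusted p below 0.05 (Brdt 0.244 and Sycp3 0.881, median log2 change 0.14). Each of these values stands beside 26.5% of genes lower, 24.8% higher and a median of -0.01 over all genes tested.

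The ATAC data addressed whether the promoters of these genes closed with passaging. Peaks had been called in each sample separately, so a promoter was described by the percentile of its strongest merged peak within 1000 bases of a start site, among all merged peaks of that sample. The samples held 142384 to 231558 merged peaks, with the most at P7 (200376 to 231558), so a percentile compares a peak with different numbers of others. All 8 genes had a promoter peak in all 13 samples, as did 57.8% of 26180 genes.

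For Dnmt1, the strongest peak in this window had a mean percentile of 93 ± 2.1 (SD, n = 4) in P1 samples. In P7 samples the mean was 93 ± 1 (SD, n = 3). This peak covered the start site at 20952623 in only 2 of 13 samples. In the others it lay downstream of that site, inside the gene. A peak over the start sites at 20952623 and 20952979 averaged 86.8 ± 5.1 in P1 samples and 86.9 ± 5.2 in P7 samples, which also overlapped. The strongest peak of Uhrf1 had means of 95.4 ± 1.7 and 93.6 ± 1.3, and that of Tdg 95.9 ± 1.1 and 94.5 ± 0.3. By percentile the P1 and P7 samples overlapped for all 3 genes. Tet3 (91.1 and 91.5), Tet2 (90.7 and 87.9) and Dnmt3a (80.4 and 79.9) also overlapped between P1 and P7. The peak's fold enrichment gave other results for some of these genes. It was 10.38 to 12.59 at P1 and 13.54 to 15.73 at P7 for Uhrf1, 10.82 to 12.68 and 12.69 to 15.1 for Tdg, and 8.36 to 9.81 and 11.26 to 11.89 for Tet2, higher at P7 without overlap in each case. For Tet2 this is the opposite direction to the mean percentile. For Uhrf1 the strongest peak covered the upstream start site in all P1 samples and only the downstream one in all P7 samples. The median fold enrichment over all merged peaks of a sample was also higher at P7 (5.03 to 5.49) than at P1 (4.38 to 4.68). The share of all promoters that were higher on this scale was not counted. For the strongest peak of Dnmt1 (8.44 to 11.88 and 11.6 to 15.08), Dnmt3a and Tet3 the P1 and P7 samples overlapped on this scale too. They also overlapped for the peak over the Dnmt1 start sites, at 6.59 to 10.4 and 9.21 to 11.87.

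Tet1 and Dnmt3b had the weakest promoter peaks of the group and the lowest ones at P7. The Tet1 peak was at percentile 67.2, 62.8, 62.5 and 58.6 at P1, 60.1, 55.6 and 53.9 at P3, 46.4, 58.5 and 46.7 at P5, and 41.3, 30.3 and 44.3 at P7. All P7 samples lay below all others. The difference from P1 was -24.2 (two-sided exact permutation p = 0.0286, adjusted p = 0.4 over 40 tests), and from P3 it was -17.9 (exact permutation p = 0.1, the smallest that 3 against 3 samples allow).

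For Dnmt3b the percentile was 74 to 79.9 at P1 and 65.7, 34.3 and 68.3 at P7, a difference of -19.8 (exact permutation p = 0.0286, adjusted p = 0.4). Most of it came from 1 P7 sample, and a P3 sample was also low at 51.9. Promoters whose samples were all lower at P7 made up 28.9% of genes with a peak against P1 and 11.6% against P3. The smallest adjusted p this design allows is 0.0714, so no promoter difference could pass 0.05. Measured by the peak's fold enrichment, the P1 and P7 samples of both genes overlapped, with means of 5.52 and 4.79 for Tet1 and 7.99 and 7.12 for Dnmt3b.

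**Figure D3:**
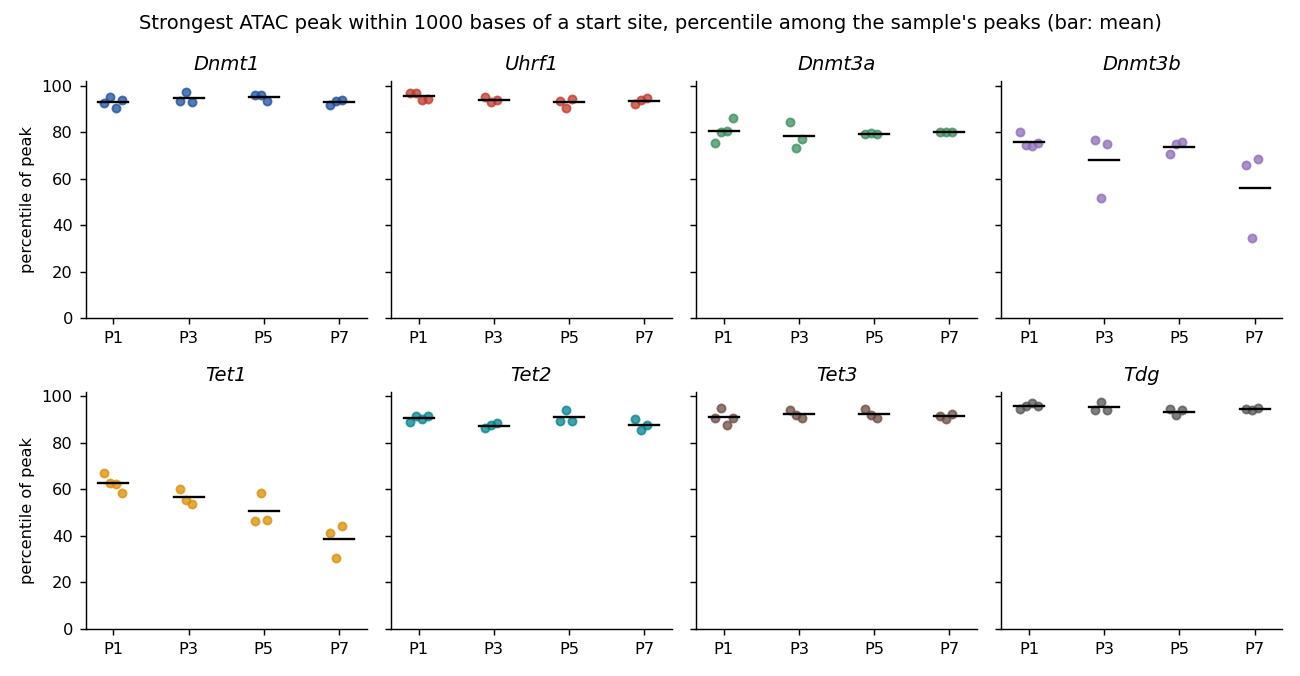
Percentile of the strongest ATAC peak within 1000 bases of a start site (vertical axes, 0 to 100) for the 8 genes at P1 (4 samples), P3, P5 and P7 (3 samples each), with a point for each sample and the mean as a bar. Tet1 declines to 38.6 at P7, Dnmt3b is lowest at P7 in 1 sample, and the P1 and P7 samples of the other 6 genes overlap.

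Uhrf1 has 2 annotated start sites, and their peaks were examined after the promoter values had been seen. In 6 of 13 samples a single merged peak covered both sites, so the called summits within 400 bases of each site were compared. The upstream summit was at percentile 97.8, 97.6, 95.2 and 95.6 at P1, 96, 90.4 and 95.4 at P3, 94.6, 91.2 and 84.7 at P5, and 67.1, 68.2 and 71.5 at P7. The downstream summit was at 91.5 to 94.5 at P1 and 93.7 to 95.5 at P7. The upstream site was thus lower in all P7 samples than in any other sample, and the downstream site overlapped between P1 and P7.

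By the merged peak over the upstream site, the mean percentile was 95.4 at P1, 94 at P3 and 65.9 at P7. The difference was -29.5 against P1 and -28.1 against P3, given with no test because the site was chosen on these values. For the downstream site it was -0.5 and 0.4. The fold enrichment of the peak over the upstream site went the same way, at 10.38 to 12.59 in P1 samples, 10.12 to 11.41 in P3 samples and 5.49, 6.2 and 6.38 in P7 samples. Of start sites with a peak, 32.2% were lower in all P7 samples than in all P1 samples and 13.3% than in all P3 samples. A fall as large as that of the upstream site was seen at 2.39% and 0.771% of the 14660 start sites with a peak in every sample. These shares describe a site chosen on the same values and are not a test of it. The upstream summits lay 18 to 77 bases before the start site, in the stretch of the printed sequence that holds the capitals TTCCCGC, 48 bases before the start. Counts per gene cannot tell transcripts of the 2 start sites apart.

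**Figure D4:**
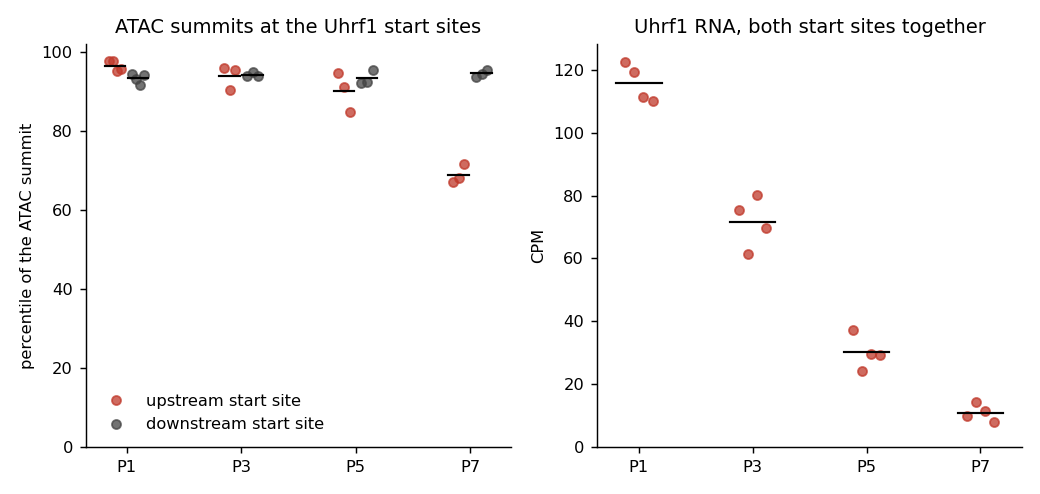
Left, percentile of the ATAC summit within 400 bases of the upstream (red) and downstream (grey) start site of Uhrf1 in each sample, by passage. Right, Uhrf1 CPM of the RNA-seq libraries, for both start sites together. The upstream summits drop to 67.1, 68.2 and 71.5 at P7, the downstream ones stay above 91, and RNA falls at every passage.

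At Dnmt1, summits near the start sites at 20952623 and 20952979 were at percentile 88 ± 2 at P1 and 88.5 ± 5.2 at P7. The far upstream start site at 20959888 had no peak in any sample.

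E2f4 was overexpressed in fibroblasts described as pre-senescent, at P4. E2f4 itself was 1118 and 1180 CPM against 35.5 and 47.5 in the vector control, where reads of the introduced and of the cell's own gene cannot be told apart. Dnmt1 was 298 and 299 CPM with E2f4 and 104 and 116 CPM without, 2.71-fold higher (log2 change 1.44 ± 0.107, adjusted p = 6.59e-06). Uhrf1 was 137 and 145 CPM against 65.7 and 56.6, 2.3-fold higher (log2 change 1.2 ± 0.116, adjusted p = 2.44e-05). The groups did not overlap for either gene.

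Tet2 went the other way, at 7.85 and 8.12 CPM against 19.4 and 15.2, 2.17-fold lower (log2 change -1.12 ± 0.166, adjusted p = 0.000258). Thus 2 of 7 members were higher, where 28.9% of all genes were, and 1 was lower, where 28.2% were. Dnmt3a was at -0.27 (adjusted p = 0.0682), Dnmt3b at 0.42 (adjusted p = 0.23), Tet1 at -0.03 and Tet3 at -0.08 on the log2 scale, and none of these passed the test. The members' median was -0.03, and that of all genes 0.01.

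Of the 26 replication genes, 24 were higher with E2f4 (median log2 change 0.84). Relative to this list Dnmt1 stood 1.49 and 1.63 above the list in the control and 2.08 and 2.13 above it with E2f4. For Uhrf1 the corresponding values were 0.61 and 0.84 against 0.96 and 1.09. Among the genes listed as partners 6 were higher and 3 lower. Pcna (0.78) and Cdca7 (1.24) were higher, while Hells was lower (-0.53). Of demethylation and repair genes 7 were higher and 6 lower, with Ung higher (1.22) and Neil3 lower (-0.78). Methyl donor genes counted 7 higher and 3 lower, readers 1 higher and 4 lower, and of 4 tested germline genes 2 were lower. Summed skeletal muscle markers were 22.4 to 23.8 CPM with E2f4 and 66.8 to 76.3 in the control, and their part in these values was not tested.

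Knockdown of E2f4, in proliferating cells at P3, gave smaller changes of the opposite sign for the maintenance pair. E2f4 was 21.6, 20.4 and 21.8 CPM with sh1 and 59.6, 60.8 and 59.6 CPM in the control. Dnmt1 was 120, 113 and 136 CPM with sh1 and 169, 157 and 172 CPM in the control (log2 change -0.43 ± 0.075, adjusted p = 0.00119). Uhrf1 was 39.9, 35.4 and 40.7 CPM against 58.3, 54.8 and 65.9 CPM (log2 change -0.63 ± 0.096, adjusted p = 0.000459). Neither gene overlapped between groups.

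These were the 2 of 7 members called lower with sh1, where 7.79% of all genes were, and 0 were higher. The log2 change was -0.96 for Dnmt3b (adjusted p = 0.0554) and -0.28 for Tet3 (adjusted p = 0.0879). The calls of Dnmt1 and Uhrf1 were kept without sh1 replicate 3 and without control replicate 1, the libraries that stood out in this experiment. Without sh1 replicate 3, 5 of 7 were called lower, with Dnmt3a, Dnmt3b and Tet3 added. Of the replication genes 16 were lower (median log2 change -0.43), of the partners 6 were lower with Hells at -0.56 and Cdca7 at -0.70, and of the methyl donor genes 5 were lower. The median over all genes was -0.01. Relative to the replication list Dnmt1 was at 2.15 ± 0.1 with sh1 and 2.18 ± 0.04 (SD, n = 3) in the control. Uhrf1 was at 0.49 ± 0.08 and 0.71 ± 0.09, with no overlap. Summed fibroblast markers were 23780 to 26210 CPM with sh1 and 30934 to 31910 in the control, and their part in these values was not tested. A single hairpin against E2f4 was analysed, so an effect of the hairpin beyond its target was not tested.

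**Figure D5:**
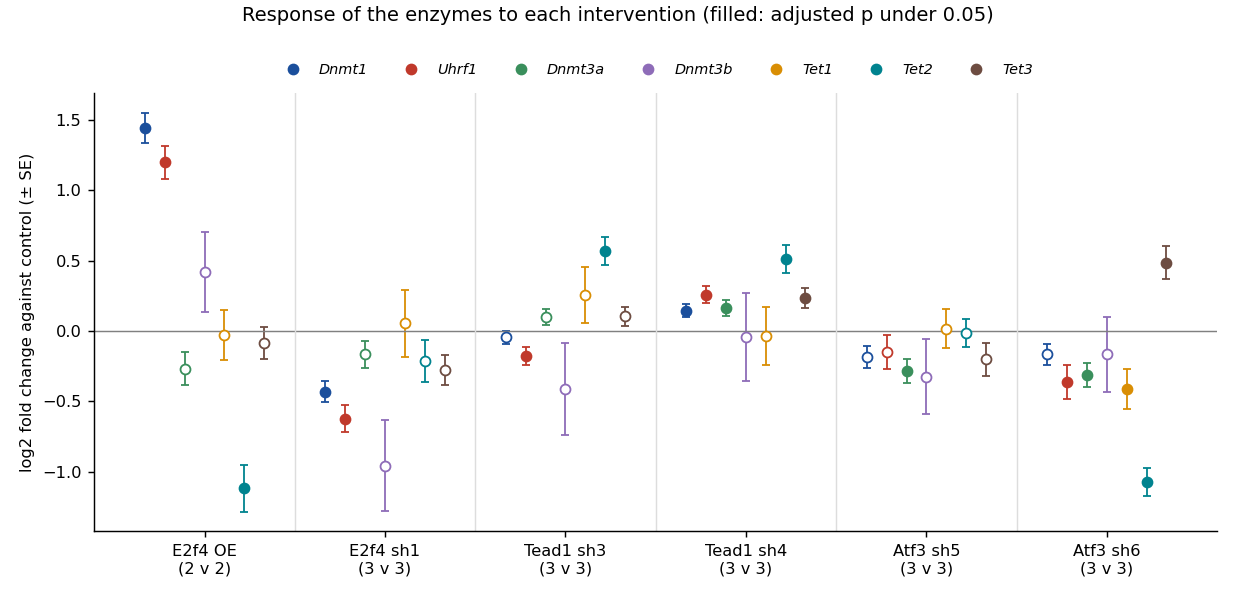
Log2 fold change against the control of the same experiment (vertical axis) for the 7 tested genes in each intervention (horizontal axis, with the number of libraries), with the SE as whiskers. Filled points have an adjusted p under 0.05. Dnmt1 and Uhrf1 are up with E2f4 and down with E2f4 sh1, and Tet2 ranges from -1.12 to 0.57.

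Tet2 was higher with both Tead1 hairpins. Tead1 was 268 to 285 CPM with sh3, 313 to 320 with sh4 and 508 to 572 in the control, which both hairpins share. By the paper's list of hairpin sequences, sh3 and sh4 target nearly the same stretch of Tead1. An effect beyond the target that both hairpins have in common was not tested. Tet2 was 16.9, 18.3 and 16.4 CPM with sh3, 17.3, 16 and 16.2 with sh4, and 11.6, 10.4 and 12.7 in the control. Every knockdown library lay above every control library. The log2 change was 0.57 ± 0.098 with sh3 (adjusted p = 2.39e-05) and 0.51 ± 0.098 with sh4 (adjusted p = 0.000145), and the 2 hairpins differed by -0.06 ± 0.093 for Tet2 (adjusted p = 0.787).

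The maintenance pair differed between the hairpins. Uhrf1 was 48, 46.4 and 47.2 CPM with sh3, 64.1, 57.8 and 69.5 with sh4, and 56.2, 50.3 and 53.5 in the control. It was lower with sh3 (log2 change -0.18, adjusted p = 0.0304) and higher with sh4 (0.26, adjusted p = 0.0017), and the difference of sh4 from sh3 was 0.43 ± 0.062 (adjusted p = 2.65e-05). Dnmt1 differed by 0.19 ± 0.046 in the same direction (adjusted p = 0.00853). Of the 26 replication genes, 6 were higher and 4 lower with sh3 (median log2 change 0.03), 13 higher and 1 lower with sh4 (median 0.21), and 8 higher, 0 lower and 18 not called in sh4 against sh3 (median 0.17).

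With sh3, 2 of 7 members were called, where 35.4% of all genes were in either direction. With sh4, 5 of 7 were higher (Dnmt1 0.14, Dnmt3a 0.16, Tet2 0.51, Tet3 0.23 and Uhrf1 0.26), where 14.4% of all genes were, and 0 were lower. In sh4 against sh3, 2 of 7 were higher, against 3.34% of all genes. Without sh4 replicate 3, or without control replicate 2, the sh4 calls were down to Tet2 and Uhrf1. The Dnmt1 call was also lost without sh4 replicate 1, and the Dnmt3a call without sh4 replicate 2 or control replicate 3. The Uhrf1 call with sh3 was lost without sh3 replicate 2 or 3, or without control replicate 1 or 3.

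Between the Atf3 hairpins the TET genes differed, and the DNMT genes and Uhrf1 did not pass the test. Atf3 was scarce, at 8 to 41 counts with sh5 (log2 change -1.14, adjusted p = 0.0447), 26 to 36 counts with sh6 (-0.79, adjusted p = 0.114) and 52 to 78 counts in the shared control. The paper checked its Atf3 knockdown by RT-qPCR and immunoblot. By the test on these counts Atf3 was called lower for sh5 and not for sh6. In CPM, every library of both hairpins lay below every control library. Dnmt3a was lower with both: 46.9, 42.1 and 41.8 CPM with sh5, 43, 40.8 and 43.9 with sh6, and 54.7, 55.1 and 49.1 in the control. No knockdown library reached the lowest control library. The log2 change was -0.28 ± 0.085 with sh5 (adjusted p = 0.0265) and -0.32 ± 0.085 with sh6 (adjusted p = 0.0105). It was the 1 member of 7 called with sh5, where 18.1% of all genes were lower, and it was lost when sh5 replicate 2, control replicate 1 or control replicate 2 was left out. Without sh5 replicate 3, the library that stood apart, it was -0.23 and still called.

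With sh6, the TET genes moved in different directions. Tet2 was 10.5, 9.71 and 11.1 CPM against 22.9, 21.1 and 21.8 in the control and 20.6, 22.9 and 21.6 with sh5. Its log2 change was -1.07 ± 0.101 against the control (adjusted p = 1.26e-05) and -1.06 ± 0.102 against sh5 (adjusted p = 1.6e-05). Tet3 was 80.7, 79.4 and 77 CPM with sh6, 56.2, 58.2 and 54.8 in the control and 53.9, 54.5 and 38.9 with sh5. It was higher by 0.49 ± 0.117 than the control (adjusted p = 0.0059) and by 0.69 ± 0.118 than sh5 (adjusted p = 0.000778).

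Tet1 was lower with sh6, by -0.42 against the control (adjusted p = 0.0316) and -0.43 against sh5 (adjusted p = 0.0262), and Uhrf1 by -0.36 against the control (adjusted p = 0.0303). The Tet1 call against the control was lost without sh6 replicate 1 or 2 or any 1 control library, that against sh5 without sh5 replicate 1 or sh6 replicate 1 or 2, and the Uhrf1 call without sh6 replicate 3 or control replicate 2 or 3. With all libraries, 5 of 7 members were called with sh6, 4 lower and 1 higher, where 49.8% of all genes were called. In sh6 against sh5, 3 of 7 were called and 52.6% of all genes were. Dnmt1 was at -0.19 with sh5 and -0.17 with sh6 (adjusted p = 0.0787 and 0.0922). In the sh6 cells 6 of 8 fibroblast markers were lower than in the control. The summed CPM of 8 skeletal muscle markers was 196 to 214 against 37.6 to 39.1. Only 3 of these muscle markers were tested, with 1 higher and 2 lower (median log2 change -1.01), so the sum does not speak for the list. The part of these marker changes in the TET values was not tested.

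Across the experiments, Dnmt1 was the highest per kb in every library but 1 of the vector control, where Uhrf1 was. Mean Dnmt1 was 91.5 to 298 CPM over the manipulated groups and 62.4 to 224 over the passages. Tet1 was 1.05 to 2.18 CPM in the passage groups, 3.58 to 4.39 in the Tead1 experiment, 6.26 to 6.52 in the E2f4 knockdown, 6.38 to 8.61 in the Atf3 experiment and 9.45 to 9.59 in the overexpression experiment. The experiments were normalised apart, used cells of different passages and may differ in the age of the mice, so these differences were not tested.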

How the data were processed

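RNA-seq libraries were, per the study's methods, trimmed with Trimmomatic, aligned to mm10 with Hisat2 and counted per gene with HTSeq without regard to strand. The deposited files hold raw counts per gene. The submitters' processing notes name Trimmomatic 0.39, HISAT2 2.2.1, HTSeq 0.12.4 and Bowtie2 2.3.5.1. ATAC-seq peaks were called by the authors per sample with MACS2. The deposited peak files give the −log10 p-value, −log10 q-value, a score and the fold enrichment, and no read depth. RRBS samples were not analysed here.

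Rows that name no gene were left out. In the hairpin and overexpression libraries they held 7.5 to 16.76% of reads. The passage libraries came without such rows, so their share of unassigned reads is not known. Genes were tested with edgeR 4.0.16 (R 4.3.3; filterByExpr, TMM, quasi-likelihood F test, Benjamini-Hochberg over all genes tested, called below 0.05) in 1 fit per experiment: 13442 genes for the passages, 13199 for overexpression, and 12310, 13012 and 13345 for the E2f4, Tead1 and Atf3 hairpins. Dispersion is shared within an experiment. Without strand, reads of a gene and of an antisense partner cannot be told apart. Per-kb levels divide CPM by the exonic length.

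Overlapping peaks of a sample were merged, and each merged peak was ranked by its −log10 p-value. Percentiles were compared by two-sided exact permutation tests over samples, adjusted over 40 tests. Replicate numbers were not taken as pairs, since no label ties them to a shared culture (correlation of same-numbered passage libraries -0.262 to 0.276, with 11 of 24 over 0.1). For its methylation sites the paper describes independent series of samples over the passages. It does not say whether the replicate numbers of RNA-seq or ATAC-seq mark such series.

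Alternatives were DESeq2 1.42.0, its size factors, other filters on low counts, a replicate block, fits restricted to the compared pair of groups, each library left out, other windows, fold enrichment in place of the percentile, and a −log10 q of at least 5. The peak over the start site itself and the summits were added after seeing the data. Members and lists were chosen with earlier results of these data known. From each list of pathway genes, the 6 with the largest change among those called at P7 against P3 were named, except for genes that are not reported here. Some of these are given again for E2f4. The targeted genes and the genes with the highest r to a member were also named, and the 2 tested germline genes after their values were seen.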

Additional observations from a re-analysis of the deposited data

Results flagged for a closer look

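The 2 hairpins against a factor were compared for each tested member, in 14 tests, and 5 differed by edgeR's quasi-likelihood test. They were 2 of 7 for Tead1, where 7.37% of all genes were called in either direction, and 3 of 7 for Atf3, where 52.6% were. For Tead1, sh4 was above sh3 by 0.19 for Dnmt1 (adjusted p = 0.00853) and by 0.43 for Uhrf1 (adjusted p = 2.65e-05) on the log2 scale. For Atf3, sh6 differed from sh5 by -0.43 for Tet1 (adjusted p = 0.0262), by -1.06 for Tet2 (adjusted p = 1.6e-05) and by 0.69 for Tet3 (adjusted p = 0.000778). The Dnmt1 difference lost its call without sh3 replicate 1 or sh4 replicate 3, and the Tet1 difference without sh5 replicate 1 or sh6 replicate 1 or 2. Tead1 RNA itself was higher with sh4 than with sh3 by 0.18 (adjusted p = 0.00625), and the Atf3 hairpins did not differ in Atf3 RNA by the test (0.35, adjusted p = 0.504). In 36 groups of 4 libraries or samples, Dixon's test found 0 with a sample apart, where chance gives about 5%.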

How the results depend on the processing

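Over all alternatives, 1055 log2 changes of members kept their direction and side of the threshold, 58 lost the call, 16 gained it and 0 reversed. Every call of Dnmt1 and Uhrf1 between passages and with E2f4 was kept under each alternative. Without the filter on low counts, 4 members in place of 2 were called with E2f4 sh1 and 0 in place of 1 with Atf3 sh5. In a fit of only the 2 groups compared, 0 were called with Atf3 sh5. DESeq2 lost Dnmt3a with Tead1 sh4 (adjusted p = 0.0527).

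With libraries left out in turn, the members called ranged from 2 to 5 for P5 against P3 (5 without P5 replicate 2), 3 to 6 for P7 against P1, 4 to 6 for P7 against P3, 2 to 3 for P7 against P5, 3 to 4 for E2f4 overexpression, 2 to 5 for E2f4 sh1, 1 to 2 for Tead1 sh3, 2 to 5 for sh4, 1 to 2 for sh4 against sh3 (1 without sh3 replicate 1 or sh4 replicate 3), 0 to 1 for Atf3 sh5, 3 to 4 for sh6, where 5 were called with all libraries (3 without control replicate 2 or 3) and 2 to 3 for sh6 against sh5. They stayed at 2 for P3 against P1.

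For promoters, the median difference in percentile of the 8 genes was -1.8 for P3 against P1, 0.4 for P5 against P3, -1.5 for P7 against P5, -1.6 for P7 against P1 and -0.8 for P7 against P3. For P5 against P3 it was -0.5 with a window of 500 bases and -0.5 with the peak over the start site. On another scale, fold enrichment, all peaks of a sample also had a higher median at P7 than at P1. As a difference on that scale, the median of the 8 genes was 0.11 for P7 against P5, 1.46 for P7 against P1 and 1.59 for P7 against P3. With samples left out, the medians ranged from -2.5 to -0.5, -0.9 to 1.1, -2.4 to -0.8, -2 to -1.3 and -1.4 to -0.6 in the same order. Dnmt3a reversed at P7 against P5 with the peak over the start site (-3.5), and Tet2 at P3 against P1 with fold enrichment (0.47). The causes were not tested.

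With the replicate number as a block, 4 members were called with E2f4 overexpression (Dnmt3a added, adjusted p = 0.0331), 3 with E2f4 sh1 (Tet3 added, adjusted p = 0.0265) and 4 with Atf3 sh6 (Uhrf1 lost, adjusted p = 0.0526), and the block changed no other call. The labels do not say that a number marks a shared series of passages. Of 24 same-numbered pairs of passage libraries, 11 correlated over 0.1 (median 0.094, against -0.021 for other pairs), which does not settle the pairing. Depth limits the levels of Dnmt3b and Tet1, whose counts were low.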
